A study of Mus musculus with 6 samples.

Results

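Matrix metalloproteinases (MMPs), ADAMs and tissue inhibitors of metalloproteinases (TIMPs) were followed in 10 genes chosen by symbol, Mmp8, Mmp9, Mmp12, Mmp13, Mmp14, Timp1, Timp2, Adam8, Adam10 and Adam17, out of 54532 genes measured in LPS-treated macrophages. All 10 were found in the files. The libraries came from iBMDMs, bone marrow-derived macrophages of WT mice that retroviruses carrying v-raf and v-myc had turned into a growing line. Both groups had been infected with a lentivirus, which encoded a control shRNA (control, 3 libraries) or an shRNA against Pgam5 (PGAM5 KD, 3 libraries), and both had received 100 ng/ml LPS for 4 hours. As far as the sources tell, each group is 1 infected line with its own shRNA, and the shRNA cannot be told apart from other differences between the lines. Untreated cells were not analysed here, so values compare the groups after LPS and measure no induction. Whether replicates were separate cultures is not given in the sources used here, and p-values then measure the spread between these libraries, which may be technical.

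MMPs are zinc-dependent proteases that cut collagens, elastin and other matrix proteins, and are made as inactive precursors. TIMPs bind their active site and block it. ADAMs are related proteases, mostly anchored in the cell surface, that release the outer part of membrane proteins such as TNF and its receptors, a step called shedding. In macrophages, MMP9 (a gelatinase) and MMP12 (the macrophage elastase) serve in migration and matrix turnover, and ADAM17 releases soluble TNF after LPS.

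Among these genes, those for the inhibitor Timp1, the gelatinase Mmp9 and the sheddase Adam10 were higher in PGAM5 KD iBMDMs, while Timp2, too low for the main test, was lower in the fit without a filter on low FPKM. Adam8 and Adam17 were within the spread of Adam10 in control cells and did not pass the test, and Mmp8, Mmp12, Mmp13 and Mmp14 were at or near 0 in every library. Values are FPKM, fragments scaled to library depth and to the length of all annotated exons of a gene. Levels of different genes can be compared only as far as this length fits the transcripts expressed, which was not tested. Differences were tested with limma on log2(FPKM + 1) over the 10540 genes with a mean of at least 1 FPKM, a scale on which low genes appear to change less than they do. Of the 10 genes 5 passed this filter (Mmp9, Timp1, Adam8, Adam10 and Adam17), and 3 of the 5 were called at an adjusted p-value under 0.05, all of them higher in PGAM5 KD cells. The background was high, since 31.7% of all genes tested were called and 16.8% were called as higher, so the count of 3 is no result about the family as such. None of the 5 had an absolute log2 fold change above 1, the second threshold of the study, which 1.32% of genes tested passed together with the first.

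Depth lay between 18163463 and 24388915 fragments per library, as recovered from the steps of the FPKM values, and the fragments of the 10 genes came out whole within 0.00121. At the lowest of these depths, 1 fragment on 1 kb of exon was worth 0.0551 FPKM. Pgam5 itself had 17.10, 12.97 and 13.40 FPKM in control and 4.33, 5.75 and 4.53 FPKM in PGAM5 KD libraries (log2 fold change -1.40 ± 0.13 SE, limma adjusted p = 0.000358). Of 10 macrophage markers 8 reached 1 FPKM, with Mertk listed at 0 in every library, and the list summed to between 2977 and 3062 FPKM in control and between 2691 and 2718 FPKM in PGAM5 KD libraries. These markers moved apart, with Fcgr1, Adgre1, Itgam and Cd14 higher (log2 fold change 1.51, 0.85, 0.68 and 0.56) and Csf1r, Lyz2 and Cd68 lower (-0.64, -0.40 and -0.20), all at a limma adjusted p of at most 0.00322, while Spi1 did not pass (0.431). Their part in the results was not tested. Of 11 neutrophil markers, the cells best known for MMP8 and MMP9, 7 were at 0 in every library, Ly6g, S100a9, Mpo and Elane among them, and the list summed to between 1.47 and 2.23 FPKM in control and between 1.61 and 1.84 FPKM in PGAM5 KD libraries, most of it Csf3r. Fibroblast markers summed to at most 0.287 FPKM in any library and epithelial markers to 0, and of 9 lymphocyte markers Lck alone reached 1 FPKM.

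**Figure D1:**
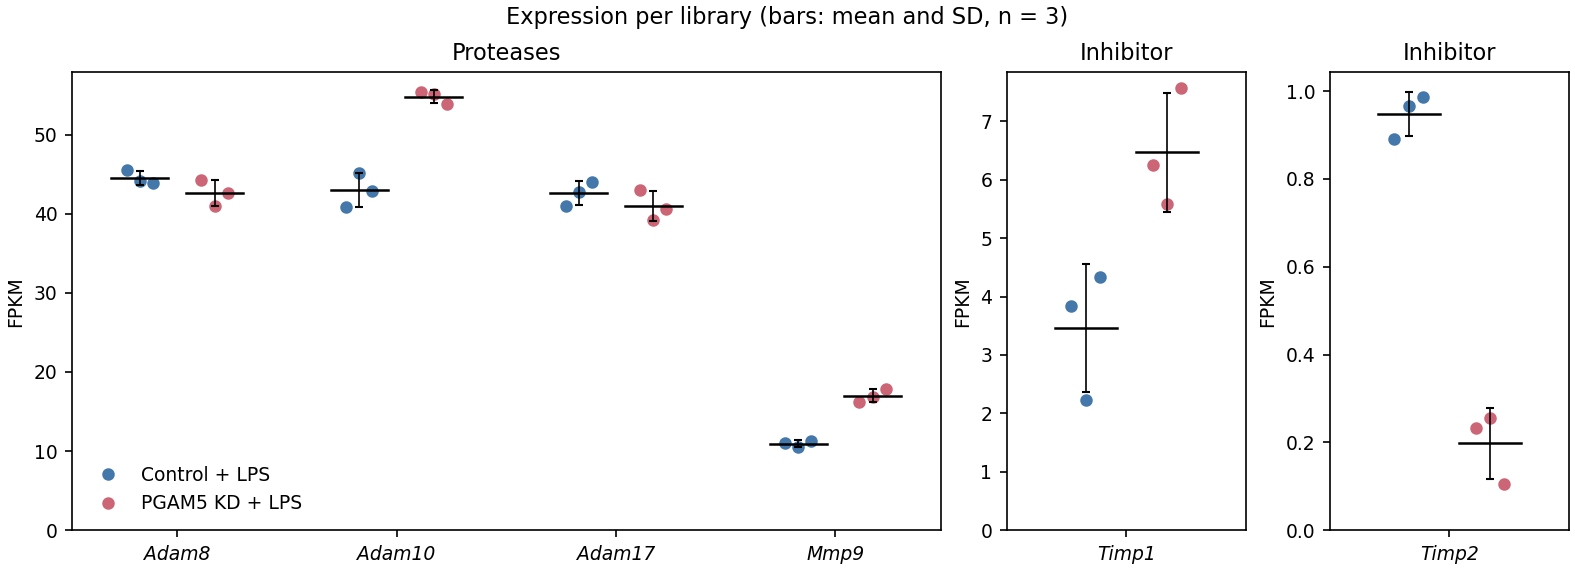
FPKM of the 6 genes with a measurable level, with 1 point per library, control in blue and PGAM5 KD in red, and lines for the mean and SD (n = 3); Timp1 and Timp2 have axes of their own. The groups do not overlap for Adam10, Mmp9, Timp1 and Timp2 and overlap for Adam8 and Adam17.

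The ADAM genes had the highest levels of the family. Adam10 (ENSMUSG00000054693), a sheddase of Notch receptors, cadherins and chemokines, occupies chromosome 9 of GRCm38 from 70678997 to 70780229 on the plus strand. Its level was 40.8, 45.2 and 42.9 FPKM in control libraries and 55.4, 55.1 and 53.9 FPKM in PGAM5 KD libraries. The lowest PGAM5 KD value exceeded the highest control value. Groups did not overlap for 47.1% of all genes tested, with PGAM5 KD higher for 24.2%. The mean rose 1.28-fold, from 43.0 ± 2.17 to 54.8 ± 0.832 FPKM (SD, n = 3), a log2 fold change of 0.34 ± 0.04 (SE, limma adjusted p = 0.00148; exact permutation p = 0.1, two-sided, the smallest that 3 libraries against 3 allow). Between 3645 and 6453 fragments per library stood behind these values, and the log2 fold change stayed between 0.27 and 0.38 over all 17 alternatives.

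Adam17 (ENSMUSG00000052593), the TNF-converting enzyme, occupies chromosome 12 from 21323509 to 21373632 on the minus strand. It had 41.0, 42.7 and 44.0 FPKM in control and 43.0, 39.2 and 40.6 FPKM in PGAM5 KD libraries. The groups overlapped. The log2 fold change of -0.06 had a 95% interval of -0.17 to 0.06 and did not pass the test (limma adjusted p = 0.408; exact permutation p = 0.3). Its exons share 311 bases with Iah1 on the opposite strand (between 7.59 and 9.13 FPKM), and whether the counting used strand is not given in the sources used here.
Adam8 (ENSMUSG00000025473), a sheddase of leukocytes, occupies chromosome 7 from 139978932 to 139992562 on the minus strand. Its level was 45.6, 44.1 and 43.8 FPKM in control and 44.3, 41.0 and 42.6 FPKM in PGAM5 KD libraries. These groups overlapped too, with a log2 fold change of -0.06 (95% interval -0.16 to 0.03, limma adjusted p = 0.28; exact permutation p = 0.3). Of its exon bases, 46 are shared with the antisense transcript Gm16201 (at most 1.78 FPKM).

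In control cells the 3 ADAM genes were within their spread of each other, at 44.5 ± 0.927 (Adam8), 43.0 ± 2.17 (Adam10) and 42.6 ± 1.498 FPKM (Adam17; SD, n = 3). In PGAM5 KD cells Adam10 stood above both others in every library. The ratio of Adam10 to Adam17 was 0.995, 1.06 and 0.975 in control and 1.29, 1.41 and 1.33 in PGAM5 KD libraries, a difference of 0.41 on the log2 scale (exact two-sided permutation p = 0.1, adjusted p = 0.15 over the 3 ratios compared). Against Adam8 the difference was 0.42 on the log2 scale (exact permutation p = 0.1, adjusted p = 0.15). These ratios, chosen after the values were seen, do not depend on the scaling between libraries.

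Mmp9 (ENSMUSG00000017737), which encodes gelatinase B, occupies chromosome 2 from 164940780 to 164955850 on the plus strand. Expression was 11.03, 10.47 and 11.29 FPKM in control libraries and 16.3, 16.9 and 17.9 FPKM in PGAM5 KD libraries. The highest control library was well below the lowest PGAM5 KD library. The mean rose 1.56-fold, from 10.93 ± 0.416 to 17.02 ± 0.819 FPKM (SD, n = 3), with a log2 fold change of 0.59 ± 0.05 (SE, limma adjusted p = 0.000313; exact permutation p = 0.1). With each library left out in turn it stayed between 0.56 and 0.62. Osteoclasts also make MMP9, and 4 of 8 osteoclast markers reached 1 FPKM here. The list summed to between 280.3 and 292 FPKM in control and between 213 and 221 FPKM in PGAM5 KD libraries, with Acp5, Nfatc1 and Dcstamp lower and Ctsk, the marker with the highest level, higher by 0.15 on the log2 scale (limma adjusted p = 0.00818). The other osteoclast markers had means under 1 FPKM, and Calcr was at 0 in every library. Whether osteoclasts were present, and their part in the result, was not tested. In bulk RNA, fewer cells of a type and less RNA per cell cannot be told apart. Mmp9 made up between 97.7% and 99.3% of the summed FPKM of the 5 MMP genes in every library.

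The other MMP genes were close to absent. Mmp12 (ENSMUSG00000049723), on chromosome 9 from 7344381 to 7369499, had 9, 3 and 1 fragments in control and 2, 3 and 9 fragments in PGAM5 KD libraries, at most 0.0685 FPKM. Mmp13 (ENSMUSG00000050578), a collagenase gene next to Mmp12 on chromosome 9 (7272514 to 7283331), had 3, 3 and 0 fragments in control and 3, 15 and 1 fragments in PGAM5 KD libraries. Of the 19 fragments of the PGAM5 KD group, 15 were in replicate 2. Mmp8 (ENSMUSG00000005800), the neutrophil collagenase, on chromosome 9 from 7558456 to 7568485, had 1 fragment in control replicate 1 and 0 in the other 5 libraries, where a count of 0 allows up to 3 fragments, or between 0.0507 and 0.0681 FPKM (counting error only). Mmp14 (ENSMUSG00000000957), a membrane-anchored MMP on chromosome 14 from 54431612 to 54445364, had 8, 1 and 10 fragments in control and 6, 7 and 10 fragments in PGAM5 KD libraries. The groups overlapped for all 4 genes. Without the filter on low FPKM none of the 4 passed the test in limma (adjusted p from 0.57 to 0.946), with 0 of them at an unadjusted p under 0.05 there or with voom. In that fit 12.4% of 20816 genes were called, 6.36% as higher.

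**Figure D2:**
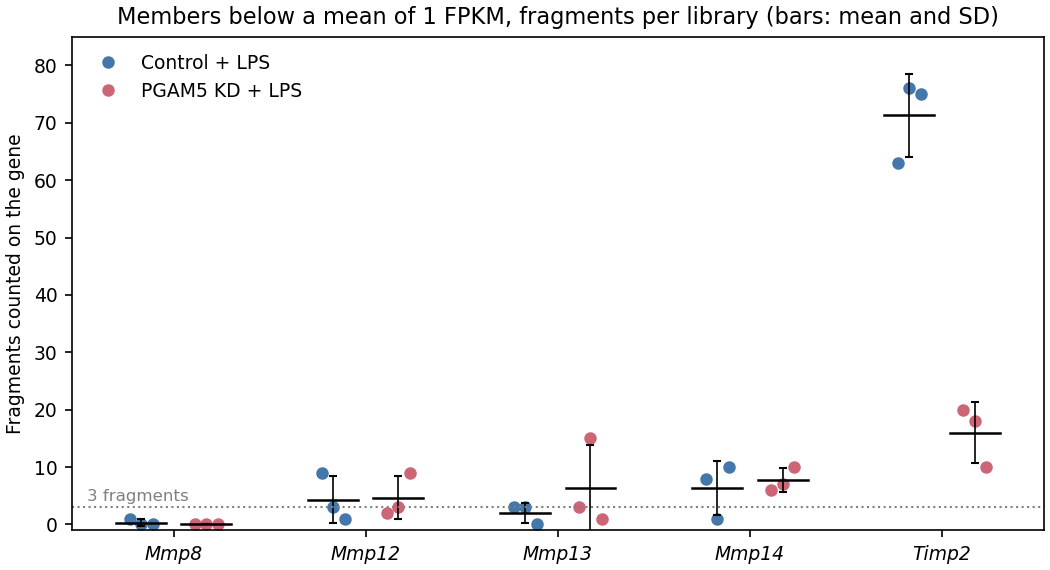
Fragments counted on the 5 genes with a mean under 1 FPKM, 1 point per library, with the mean and SD (n = 3) and a dotted line at 3 fragments. Timp2 separates the groups (63 to 76 against 10 to 20 fragments), while Mmp8, Mmp12, Mmp13 and Mmp14 stay at 15 fragments or fewer.

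Both inhibitor genes differed between the groups, in opposite directions. Timp1 (ENSMUSG00000001131), the inducible secreted inhibitor that binds pro-MMP9, occupies chromosome X from 20870166 to 20874735 on the plus strand, inside Syn1 on the opposite strand, with which it shares no exon base. Its level was 3.84, 2.23 and 4.33 FPKM in control and 6.25, 5.58 and 7.57 FPKM in PGAM5 KD libraries. No PGAM5 KD library fell within the control range, and control replicate 2 was the lowest of the 6. The mean rose 1.87-fold, from 3.47 ± 1.096 to 6.47 ± 1.01 FPKM (SD, n = 3), a log2 fold change of 0.76 ± 0.19 (SE, limma adjusted p = 0.0241; exact permutation p = 0.1). With a short transcript of 888 exon bases, between 40 and 164 fragments per library stood behind it. The call was lost without PGAM5 KD replicate 1 (adjusted p = 0.0535), without PGAM5 KD replicate 3 (0.0785) and with no filter on low FPKM (0.0751), while over all 16 alternatives the log2 fold change ran from 0.55 to 0.97 and the adjusted p from limma from 0.00766 to 0.0785.

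Timp2 (ENSMUSG00000017466), which both inhibits MMPs and helps MMP14 to activate pro-MMP2, occupies chromosome 11 from 118301069 to 118355740 on the minus strand. It had 0.89, 0.967 and 0.986 FPKM in control and 0.234, 0.254 and 0.105 FPKM in PGAM5 KD libraries. In fragments this was 63, 76 and 75 against 20, 18 and 10. The lowest control library was above the highest PGAM5 KD library, and the ratio of the means, 0.948 ± 0.0507 over 0.198 ± 0.0808 FPKM (SD, n = 3), was 4.79. Of the 20816 genes above 0 in any library, 14.7% had all PGAM5 KD libraries below all control libraries. With a mean of 0.573 FPKM the gene was below the filter and had no test in the fit above. In the fit over those 20816 genes the log2 fold change was -0.70 ± 0.08 (SE, limma adjusted p = 0.00394; exact permutation p = 0.1), where 6.09% of genes were called as lower. It did not exceed 1 in size on this scale, while 0.658% of the genes tested there were called and exceeded it. On the recovered fragments, where no constant is added to FPKM, voom gave a log2 fold change of -2.37 (95% interval -3.29 to -1.45, adjusted p = 0.000599), and 8.98% of genes were called as lower. The fall was called in each of the 6 fits that left out 1 library (adjusted p of at most 0.0189 from limma). Cep295nl, which lies inside Timp2 on the same strand, was at 0 in every library.

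Timp1 and Timp2 together summed to 4.73, 3.20 and 5.31 FPKM in control and 6.48, 5.83 and 7.68 FPKM in PGAM5 KD libraries. Timp2 made up 18.8%, 30.2% and 18.6% of this sum in control and 3.60%, 4.36% and 1.37% in PGAM5 KD libraries, a share computed after the values were seen and not tested. The ratio of Mmp9 to Timp1, the protease and its best known inhibitor, was 2.87, 4.69 and 2.61 in control and 2.60, 3.03 and 2.36 in PGAM5 KD libraries. These groups overlapped (difference -0.31 on the log2 scale, exact permutation p = 0.4, adjusted p = 0.4 over 3 ratios). The control value of 4.69 came from replicate 2, where Timp1 was lowest.

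**Figure D3:**
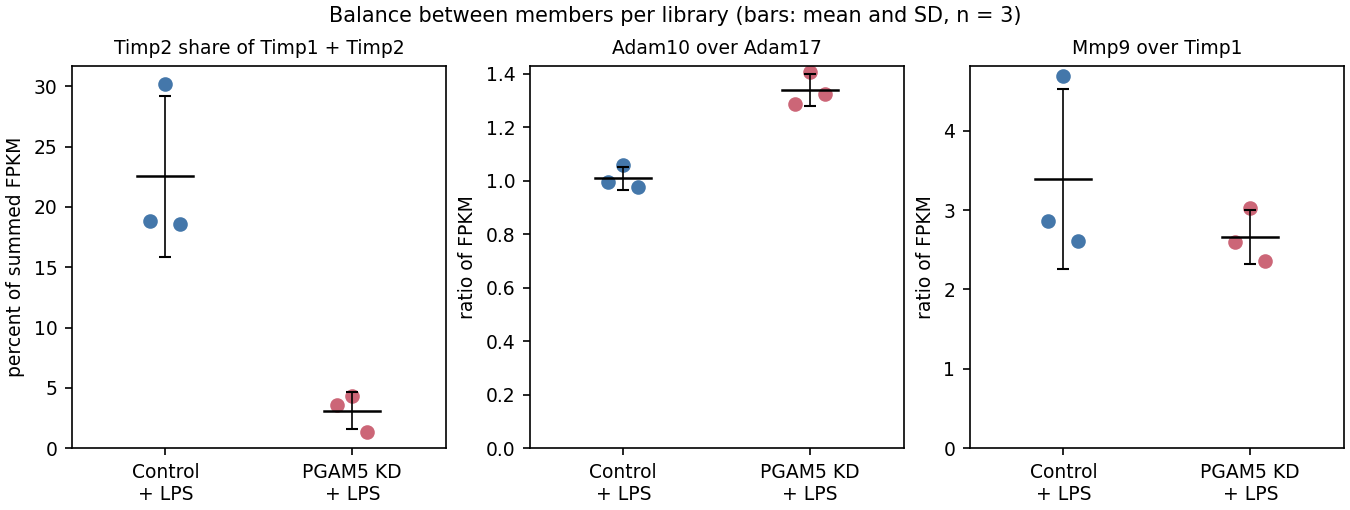
Share of Timp2 in the summed FPKM of Timp1 and Timp2 (percent), and the FPKM ratios of Adam10 to Adam17 and of Mmp9 to Timp1, with 1 point per library and lines for mean and SD (n = 3). The first and second separate the groups, with a Timp2 share of at least 18.6% in control and at most 4.36% in PGAM5 KD libraries, and the third does not.

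The differences were also compared between scales, since FPKM was not scaled further between libraries. Scaled to TPM, which lowers the median log2 fold change of all genes from 0.01 to -0.06, Adam10, Mmp9 and Timp1 had log2 fold changes of 0.27, 0.55 and 0.81, and with quantile normalization 0.30, 0.58 and 0.77. With voom they were 0.35, 0.64 and 0.97. All of these passed the threshold. Adam8 and Adam17 did not pass it on any scale, with their largest falls under TPM (-0.14, adjusted p = 0.0523, and -0.13, adjusted p = 0.0921, both from limma). Over all genes tested, the split of calls was 1771 higher and 1575 lower on FPKM, and 1088 higher and 2282 lower on TPM.

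**Figure D4:**
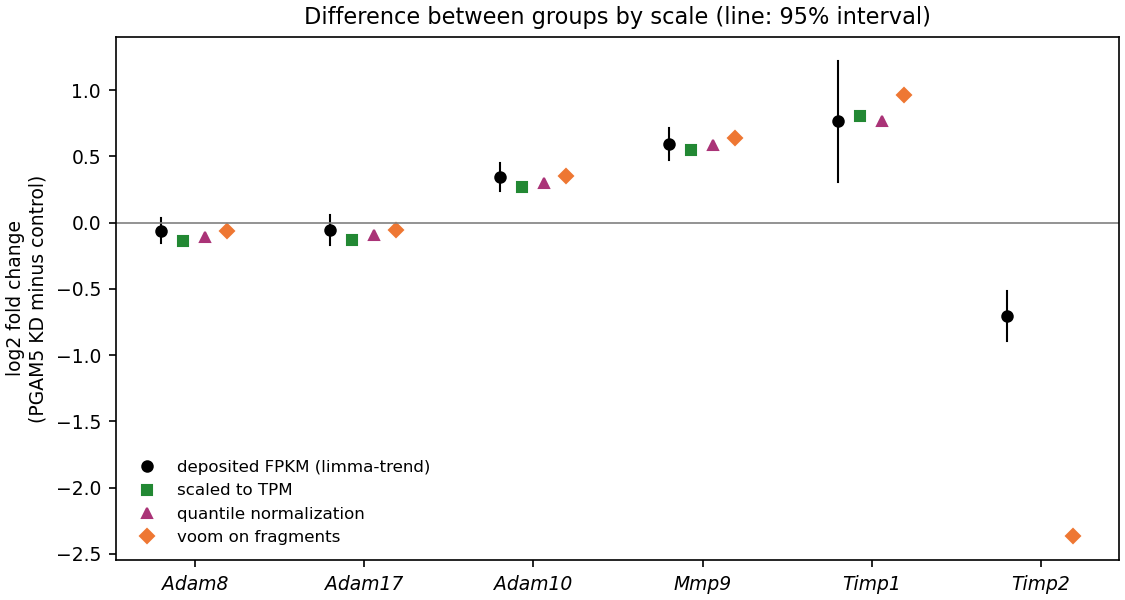
Log2 fold change of 6 genes (PGAM5 KD minus control) on the deposited FPKM, with its 95% interval from limma, and under 3 other scales where the gene was fitted. Timp2, fitted with no filter, moved from -0.70 on log2(FPKM + 1) to -2.37 on fragments, and the other 5 genes kept their sign.

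The stretch of 250 bases before the RefSeq transcription start (GRCm38.p6) was available for 9 of the 10 genes, all but Mmp9. It is shown for the inhibitor pair that moved apart, for Adam10 and Adam17, which were within their spread of each other in control cells, and for the nearly silent Mmp13. Capitals mark matches, on either strand, to TGANTCA (AP-1), GGGCGG (Sp1), CCAAT and TATAAA, and to the NF-kB and interferon-stimulated response element consensus.
Timp1, chrX:20869916-20870165, plus strand: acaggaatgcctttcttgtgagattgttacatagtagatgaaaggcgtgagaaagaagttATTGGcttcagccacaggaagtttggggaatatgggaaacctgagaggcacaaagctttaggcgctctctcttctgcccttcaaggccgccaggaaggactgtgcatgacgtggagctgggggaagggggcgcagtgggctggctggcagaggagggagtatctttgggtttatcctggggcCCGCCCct
Timp2, chr11:118355412-118355661, minus strand: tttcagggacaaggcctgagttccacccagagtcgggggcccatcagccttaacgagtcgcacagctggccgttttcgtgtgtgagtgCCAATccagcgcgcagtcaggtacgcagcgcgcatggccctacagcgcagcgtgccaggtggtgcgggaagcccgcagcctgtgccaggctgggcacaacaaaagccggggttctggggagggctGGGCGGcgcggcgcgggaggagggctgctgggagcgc
Adam10, chr9:70678732-70678981, plus strand: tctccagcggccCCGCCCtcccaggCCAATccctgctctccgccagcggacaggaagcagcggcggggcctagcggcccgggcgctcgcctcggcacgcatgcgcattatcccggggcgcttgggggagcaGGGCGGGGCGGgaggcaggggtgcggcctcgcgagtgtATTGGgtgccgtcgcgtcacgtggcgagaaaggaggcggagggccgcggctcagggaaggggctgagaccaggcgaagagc
Adam17, chr12:21373633-21373882, minus strand: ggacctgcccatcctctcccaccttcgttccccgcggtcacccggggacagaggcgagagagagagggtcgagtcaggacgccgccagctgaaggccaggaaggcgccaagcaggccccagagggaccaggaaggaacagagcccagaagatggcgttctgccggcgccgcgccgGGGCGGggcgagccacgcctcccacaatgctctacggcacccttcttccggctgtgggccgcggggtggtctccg
Mmp13, chr9:7272264-7272513, plus strand: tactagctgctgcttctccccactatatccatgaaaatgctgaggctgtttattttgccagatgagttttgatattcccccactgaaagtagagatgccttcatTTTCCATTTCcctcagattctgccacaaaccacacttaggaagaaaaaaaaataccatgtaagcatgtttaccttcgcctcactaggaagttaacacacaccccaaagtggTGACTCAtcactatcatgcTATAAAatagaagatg
Of the windows, those of Timp1, Timp2, Adam10 and Adam17 each held an Sp1 match, as did 32.7% of all 32851 windows of this length, and the first 3 also a CCAAT match (33.8% of all windows). In Adam10 the pair of Sp1 matches in the middle of the window share 1 base. Their GC content was 54.4%, 68%, 74% and 70.4%, against a median of 52.4%. Mmp13 alone of these 5 held matches to AP-1, from 35 to 29 bases before the start, and to TATAAA, from 16 to 11 bases before it. AP-1 matches were in 6.75% and TATAAA matches in 12.4% of all windows. An AP-1 match was also in 1 of the 2 windows of Mmp12. None of the 9 genes held the NF-kB consensus, which 0.356% of all windows held, and the interferon element matched in Mmp13 (2.98% of all windows). A match is a description of these letters and no match says nothing about the factor.

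Genes around the family were taken from lists written out by role. Of 18 other MMP genes, including Mmp2, Mmp3, Mmp7 and Mmp19, 0 reached a mean of 1 FPKM and 10 were at 0 in every library. Of 23 other ADAM genes 2 were tested. Adam15 rose from 26.3 ± 1.03 to 29.2 ± 0.0589 FPKM (SD, n = 3; log2 fold change 0.15, limma adjusted p = 0.0315), a call lost under 9 of 17 alternatives, TPM among them, and Adam9 had 28.1 and 28.9 FPKM (adjusted p = 0.481). The 1 tested gene of 19 ADAMTS proteases, Adamts10, did not pass (2.74 and 2.13 FPKM, adjusted p = 0.0938). Neither did the 1 tested gene of 9 other inhibitors, Cst3, which encodes cystatin C, a cathepsin inhibitor (462 and 469 FPKM, adjusted p = 0.726).

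Partners that carry ADAM10 or ADAM17 through the cell had 9 of 12 genes tested, of which 4 were lower and 0 higher, with a median log2 fold change of -0.09 against 0.01 for all genes tested, of which 14.9% were called as lower. Pacs2, which sorts ADAM17 in endosomes, fell from 9.72 ± 0.294 to 7.11 ± 0.0683 FPKM (SD, n = 3; log2 fold change -0.40 ± 0.05 SE, limma adjusted p = 0.00113) and was called under all 17 alternatives. Tspan14, a tetraspanin that escorts ADAM10 out of the endoplasmic reticulum, fell by 0.21 on the log2 scale (adjusted p = 0.0164). Rhbdf2, which encodes the rhomboid-like protein iRhom2, needed for ADAM17 to mature in macrophages, had 17.1 ± 0.0862 and 15.5 ± 0.122 FPKM (log2 fold change -0.14, adjusted p = 0.0277), and Snx27 a log2 fold change of -0.13 (adjusted p = 0.0465). The calls of Tspan14, Rhbdf2 and Snx27 were lost under 2, 7 and 10 of 17 alternatives, that of Tspan14 without control replicate 3 (adjusted p = 0.0564) and without PGAM5 KD replicate 2 (0.0529). Rhbdf2 and Snx27 lost theirs whichever of the 6 libraries was left out, and 1 or 2 partners were then lower in place of 4. On TPM 5 were lower.

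Genes of the proteolytic cascade that activates MMP precursors had 8 of 17 tested, with 5 higher, 1 lower and a median log2 fold change of 0.35, where 16.8% of all genes tested were called as higher. Plaur, the receptor that holds urokinase at the cell surface, rose from 38.0 ± 0.683 to 66.7 ± 1.24 FPKM (SD, n = 3; log2 fold change 0.80 ± 0.03 SE, limma adjusted p = 2.05e-05). Bsg, a surface protein known as an inducer of MMPs, rose from 174 ± 8.25 to 235 ± 7.24 FPKM (log2 fold change 0.43, adjusted p = 0.000506). Both were called under all 17 alternatives. St14, which encodes the protease matriptase, had 0.92 and 1.69 FPKM (adjusted p = 0.0267), lost its call under 6 of 16 alternatives and entered the test through its level in PGAM5 KD cells. Plau, which encodes urokinase itself, was at 79.5 ± 3.70 and 82.6 ± 0.431 FPKM and did not pass (adjusted p = 0.336).

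**Figure D5:**
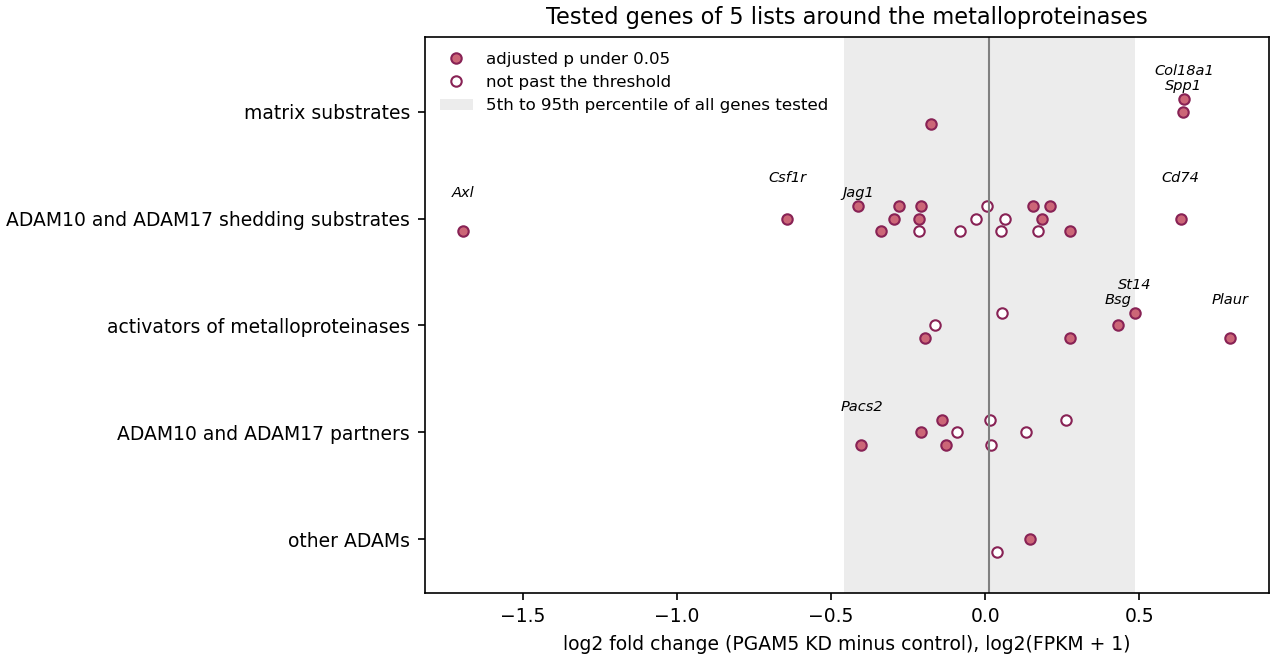
Log2 fold change (PGAM5 KD minus control) of the tested genes in 5 lists, filled where the adjusted p-value was under 0.05, with the range from the 5th to the 95th percentile of all genes tested (-0.46 to 0.49) in grey. Plaur, Cd74, Spp1 and Col18a1 lie above this range and Csf1r and Axl below it.

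Proteins that ADAM10 or ADAM17 shed had 20 of 37 genes tested, of which 8 were lower, 5 were higher and 7 did not pass, with a median log2 fold change of -0.06. Of all genes tested, 14.9% were called as lower and 16.8% as higher. The split changed to 9 lower and 1 higher on TPM and to 8 lower and 3 higher with quantile normalization, and 2 were higher without PGAM5 KD replicate 1 or 2 and 3 without any 1 control library, while 5 were lower without control replicate 1. Axl, a receptor for apoptotic cells, fell from 6.40 ± 0.685 to 1.30 ± 0.324 FPKM (SD, n = 3; log2 fold change -1.69 ± 0.13 SE, limma adjusted p = 0.000166). Csf1r, the receptor for macrophage growth factor, fell from 231 ± 8.17 to 148 ± 3.14 FPKM (log2 fold change -0.64, adjusted p = 4.71e-05), and the Notch ligand Jag1 by 0.41 on the log2 scale (adjusted p = 0.0152, and 0.0508 without control replicate 1). Cd74, the invariant chain of MHC class II, rose from 113 ± 1.73 to 176 ± 2.91 FPKM (log2 fold change 0.64, adjusted p = 2.45e-05), and the chemokine Cxcl16 and the adhesion molecule Icam1 by 0.27 and 0.21 on the log2 scale (adjusted p = 0.021 and 0.0174). Cxcl16 lost its call under 6 of 17 alternatives, among them TPM and leaving out control replicate 2 or PGAM5 KD replicate 1 or 2 (adjusted p of at most 0.0671), and Icam1 under 3, which were TPM and leaving out control replicate 1 or PGAM5 KD replicate 2 (at most 0.0691). Of the TNF genes in this list, Tnf had 319 ± 16.0 and 355 ± 8.23 FPKM (log2 fold change 0.16, adjusted p = 0.0298), a call lost under 8 of 17 alternatives, and with quantile normalization its log2 fold change was 0.00. Tnfrsf1b, a TNF receptor, fell from 25.0 ± 0.636 to 20.2 ± 0.557 FPKM (log2 fold change -0.30, adjusted p = 0.00214) under every alternative, while Tnfrsf1a, the other receptor, had 29.5 and 33.7 FPKM (adjusted p = 0.0458) and lost its call under 9 of 17.

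Matrix proteins that MMPs cut were mostly not expressed, with 3 of 25 genes tested and 11 at 0 in every library. Spp1, which encodes osteopontin and is cut by MMPs, rose from 930 ± 27.6 to 1451 ± 23.3 FPKM (SD, n = 3; log2 fold change 0.64 ± 0.03 SE, limma adjusted p = 2.54e-05). Col18a1, the precursor gene of endostatin, rose from 1.18 ± 0.159 to 2.40 ± 0.185 FPKM (log2 fold change 0.64, adjusted p = 0.00414). The laminin gene Lamc1 had 21.9 and 19.3 FPKM (log2 fold change -0.18, adjusted p = 0.0297) and lost its call without control replicate 1 or 2 or PGAM5 KD replicate 1 or 3 (adjusted p from 0.0742 to 0.0893).

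By distance over the 6 libraries, the genes whose log2(FPKM + 1), set to 0 at the control mean, followed Mmp9 most closely were Gja1, Cd14 and Ak4 (Euclidean distance from 0.0799 to 0.110), with log2 fold changes of 0.61, 0.56 and 0.59. Gja1 encodes connexin 43, Cd14 the LPS co-receptor and Ak4 a mitochondrial adenylate kinase. Gja1 had means of 1.35 FPKM in control and 2.57 FPKM in PGAM5 KD cells, a level at which the added 1 lessens its log2 fold change. For Timp1 they were Tubb2b, Cdkn2d and Sp110, at larger distances of 0.423 to 0.429, beside the wider spread of Timp1 between libraries. Tubb2b (means of 0.652 in control and 1.59 FPKM in PGAM5 KD cells) and Sp110 (0.773 and 1.70) entered the test through their level in PGAM5 KD cells. These distances describe likeness of pattern in 6 libraries of 2 groups and carry no test. Genes at a small distance have similar log2 fold changes by construction.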

How the data were processed

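RNA-seq libraries were made from poly(A) RNA of control and PGAM5 KD iBMDMs, 3 each. The authors deposited FPKM, 1 table per library, and the submitters' processing notes name HISAT2 2.0.5, featureCounts 1.5.0-p3 and the build mm10. The annotation and the strand setting are not given in the sources used here. Names, positions and exon lengths were taken from GENCODE M21 (GRCm38), in which 54495 of 54532 genes were found. Dividing FPKM by the value of 1 fragment gave whole numbers (tolerance 0.01) for 96.8% to 97.1% of values below 1000 fragments, and from these the depths. Replicates differed by more than sampling noise (chi-square per degree of freedom of at least 4.82).

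The test was limma 3.58.1 under R 4.3.3 (eBayes with trend, two-sided) on log2(FPKM + 1), with Benjamini-Hochberg adjustment over all genes with a mean of at least 1 FPKM. Exact permutation tests were added for single genes. The script was checked on data with known changes. Alternatives changed the pseudocount, filter, scaling, variance model, biotypes and libraries, added a replicate block, or used voom on recovered fragments. Lists were described by counts and medians. A marker gene and a called gene of the activator list are included in these counts but are not reported or drawn here. Named genes are the 10 genes, Pgam5, from each list the 4 called genes with the largest change, where 5 or fewer are counted the ligand or receptor genes of the shedding list, the 3 genes nearest in pattern to the 2 called genes with the largest change, and markers of at least 1 FPKM. Plau, Adam9, Adamts10, Cst3 and the markers below 1 FPKM were named after their values were seen. The genes and lists were chosen with earlier results of these data known. Transcripts with at least 85% identity over 200 bases (blastn 2.17.0) were Iah1 for Adam17, which overlaps it, and Arid5a for Mmp14 (at most 0.232 FPKM). Figures used matplotlib 3.10.9, and promoters came from RefSeq (GRCm38.p6).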

Additional observations from a re-analysis of the deposited data

How the results depend on the processing

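Over 17 alternatives, between 2 and 3 of the 10 genes were called, Timp2 in place of Timp1 with no filter. Mmp9 and Adam10 were called under all 17 and Adam8 and Adam17 under none. Timp1 kept its direction but not its call with no filter (0.76) and without PGAM5 KD replicate 1 (0.78) or 3 (0.66). With each of the 6 libraries omitted in turn, its log2 fold change ran from 0.55 to 0.91. The filter of at least 5 FPKM left Timp1 out. For the genes below the filter, voom with no filter and leaving out libraries with no filter were chosen after seeing the data, and Timp2 was called under each of them (-0.74 to -0.65 with 1 library left out). Under a replicate block, 3 of 5 genes were called, with 1440 genes higher and 1212 lower over all genes. Libraries with the same number did not deviate together (correlation from -0.0516 to 0.0161), and no library correlated best with its own number, so the numbers were not taken as pairs. Of the genes named, the block took the calls of Adam15, Rhbdf2, Snx27, St14 and Cxcl16, and it left 3 activators higher and 0 lower, 4 shedding substrates higher and 7 lower, and 2 partners lower. Genes differentially expressed numbered 139, and 261 with a pseudocount of 0.1, 76 with a filter of 5 FPKM, 233 on TPM and 283 with voom. Genes called higher numbered 1771, and 1088 on TPM. List counts were small and moved: genes called higher ranged from 3 to 5 for activators, 1 to 5 for shedding substrates, 0 to 1 for other ADAMs, ADAMTS proteases and partners and 1 to 3 for matrix substrates, and genes called lower from 1 to 5 for partners, 0 to 2 for activators, 5 to 9 for shedding substrates and 0 to 1 for ADAMTS proteases and matrix substrates. Mmp8, Mmp12, Mmp13 and Mmp14 rest on 15 or fewer fragments per library, and the part of depth in their values was not tested. The cause of the other changes was not tested.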

Other observations

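Among genes of the lists that stayed below the filter, 53 were fitted when all 20816 genes above 0 were tested, and 4 of the 53 (7.55%) were called higher in PGAM5 KD cells and 0 lower. This share is near the 6.36% of all genes called higher in that fit, and the 4 genes were named after their values were seen. Adamts1, a secreted protease that cuts proteoglycans, had 0.249, 0.131 and 0.27 FPKM in control and 0.609, 0.986 and 0.642 FPKM in PGAM5 KD libraries (log2 fold change 0.52 ± 0.11 SE, limma adjusted p = 0.0311). Hbegf, a growth factor that ADAM17 releases from the cell surface, had 0.255, 0.501 and 0.432 FPKM in control and 0.959, 0.835 and 1.04 FPKM in PGAM5 KD libraries (log2 fold change 0.48, adjusted p = 0.031). Notch1, a receptor cut by ADAM10, had 0.205, 0.254 and 0.184 FPKM in control and 0.454, 0.573 and 0.426 FPKM in PGAM5 KD libraries (log2 fold change 0.29, adjusted p = 0.0343). Eln, which encodes elastin, had 0.0136, 0.0245 and 0 FPKM in control and 0.107, 0.17 and 0.157 FPKM in PGAM5 KD libraries (log2 fold change 0.18, adjusted p = 0.0236). The groups did not overlap for these 4 genes, as for 14.7% of all genes in this fit with PGAM5 KD higher, and each rests on low FPKM.

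Of the osteoclast markers, Acp5, the tartrate-resistant acid phosphatase, had 92.9, 82.0 and 88.2 FPKM in control and 39.4, 40.9 and 41.7 FPKM in PGAM5 KD libraries. Nfatc1, the transcription factor of osteoclast formation, had 60.6, 59.4 and 62.4 FPKM in control and 27.6, 29.2 and 28.1 FPKM in PGAM5 KD libraries. Both fell by over 1 on the log2 scale (-1.09 and -1.08), while Ctsk rose by 0.15 (limma adjusted p = 0.00818) and Calcr was at 0 in every library.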
